A study of Mus musculus with 9 samples.

Results

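Ultraconserved elements, stretches of genome that are identical in human, mouse and rat, were examined as transcripts of the mouse abdominal aorta. The array carried 481 of them, named uc. with a number, and read each one with 2 probes of 1 spot each, a plus and a minus probe for the 2 strands. These 962 probes were all the non-control probes whose systematic name is uc. with a number and a strand sign, out of 59709 probes outside the controls. RNA came from the abdominal aorta of male mice on 9 one-colour arrays, 3 per group. The control group is labelled wild type and control. The second group was treated with CaPO4 (calcium phosphate), which induces an abdominal aortic aneurysm. The third had such an aneurysm and received naringenin, a citrus flavonoid. Strain, age, dose and duration are not given in the sources used here. Aortas were mixed before measurement according to the design text, which does not say whether the 3 arrays of a group are separate pools, single animals or repeats of 1 pool. The p-values therefore measure the spread between these arrays, which may be technical.

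Many ultraconserved elements overlap exons, introns or intergenic regions near genes for RNA-binding proteins and developmental transcription factors, and some lie in exons whose inclusion brings a premature stop codon. RNA copied from them, called transcribed ultraconserved regions, is known from many tissues and has been studied most in tumours, where single members were reported to bind microRNAs or to change with promoter methylation. Both strands of an element can be transcribed, and the 2 transcripts can differ between tissues. A probe reads only the strand of its own target, so the 2 probes of an element were treated as 2 measurements. The array files used here pair these probes with neither a sequence nor a genome position, so elements are identified by number and strand.

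Most of the 962 probes gave little signal in the aorta, and a minority was seen on every array. A probe was counted as detected where the scanner software marked it well above background. Of the 962 probes, 122 were detected on all 9 arrays (53 plus and 69 minus), from 112 elements. A further 192 were detected on 3 to 8 arrays, 361 on 1 or 2 arrays, and 287 on no array (145 plus and 142 minus). For 50 elements neither strand was detected on any array. The 314 probes detected on at least 3 of 9 arrays (159 plus and 155 minus, from 254 elements) were tested for group changes. The other 648 were not tested. Of all 59709 probes, 37498 were detected on at least 3 arrays and 19283 on all 9.

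The number detected depended on the array. Control 1, 2 and 3 detected 274, 244 and 247 of them. The CaPO4 group ran from 154 on CaPO4 3 to 29.4% of the probes on CaPO4 2, with 178 on CaPO4 1. Naringenin 1, 2 and 3 detected 286, 218 and 640. Naringenin 3 thus detected 66.5% of the ultraconserved probes, against 16.0% to 29.7% on the other 8 arrays. On that same array 84.1% of all probes were well above background, and so were 41.4% of the 1200 spots that the design names as negatives, a share that ran from 1.08% to 14.6% elsewhere. With the bar set at the 95th percentile of those negative-named spots, naringenin 3 had the fewest ultraconserved probes, 166, and the other arrays had 174 to 218. Under that bar 99 probes (43 plus and 56 minus) were detected on all 9 arrays, 97 of which were among the 122, and 642 were detected on none. Without naringenin 3, the number well above background on no array was 547 in place of 287.

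**Figure D1:**
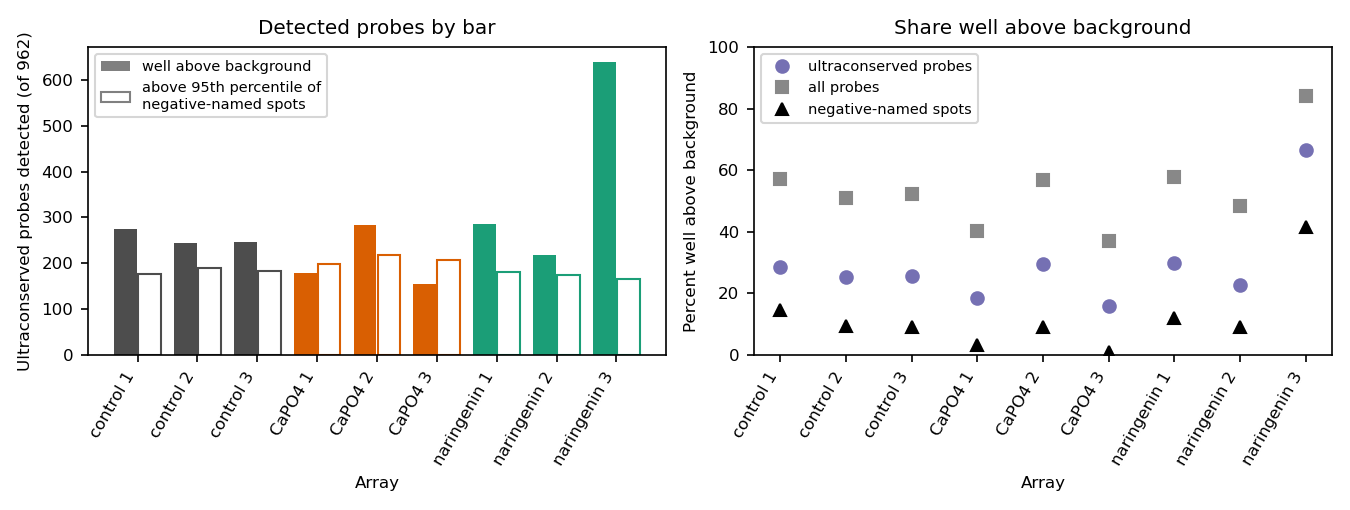
Left, number of the 962 ultraconserved probes detected on each array (filled bars, well above background; open bars, above the 95th percentile of the negative-named spots), coloured by group. Right, percent of ultraconserved probes, all probes and negative-named spots that were well above background; naringenin 3 was highest in all 3, at 66.5%, 84.1% and 41.4%, while its open bar, at 166, was the lowest.

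The strands were detected about equally often. Plus and minus probes numbered 139 and 135 on control 1, 143 and 140 on CaPO4 2, and 322 and 318 on naringenin 3, and the widest gap was 70 against 84 on CaPO4 3. Within an element, detection was more often on 1 strand than on both. Taking a strand as on where 3 of 3 arrays of a group detected it and off where 0 of 3 did, the controls had 72 elements with the plus strand alone, 70 with the minus strand alone, 25 with both and 227 with neither. In the CaPO4 group these numbers were 39, 47, 14 and 238. In the naringenin group they were 27, 31, 30 and 58, with 335 elements mixed between arrays, and that group holds naringenin 3. Under the negative-spot bar the naringenin group had 43, 50, 16 and 293, against 63, 60, 11 and 298 in the controls. Over all 9 arrays, 10 elements kept both strands on, 14 the plus strand alone and 18 the minus strand alone.

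Values are given as levels: the 75th percentile of an array was subtracted from each log2 intensity on it, so that 0 is that percentile. A level belongs to its own probe and is compared across arrays only, since brightness also depends on the probe. On each control and on CaPO4 1 and 3, from 370 (control 1) to 576 (CaPO4 3) of the 962 probes shared the lowest value the scanner software gives. No such shared value was found on CaPO4 2 or the naringenin arrays. Of the 122 probes detected on every array, 117 had a value on each. Over these the median SD within a group was 0.15 in the controls, 0.50 in the CaPO4 group and 0.32 in the naringenin group, against 0.12, 0.68 and 0.46 for all probes detected on every array.

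CaPO4 2 stood apart from the other CaPO4 arrays. Over the 117 probes, CaPO4 1 and 3 correlated at r = 0.990, CaPO4 2 correlated with them at 0.784 and 0.796, and it correlated with naringenin 1 and 2 at 0.938 and 0.934. These correlations are across probes of 2 arrays and are descriptive. CaPO4 2 lay more than 2-fold from the mean of CaPO4 1 and 3 for 49 of the 117 probes, below it for 33 and above it for 16, and was nearer to naringenin 1 and 2 for 85. Amy2a5, a pancreatic amylase, had control levels of 0.10, 0.54 and 0.70, stood at 2.03, 11.05 and 2.04 in CaPO4 1, 2 and 3, and ran from 9.93 to 11.12 with naringenin, the same split. Its part in the results was not tested. It was 1 of 3 markers named on the array out of a list of 37, with Ccl21b and Ccl21c, chemokines of lymphoid stroma. Ccl21b ran from 4.93 to 5.05 in the controls, was at 7.58, 9.65 and 7.70 after CaPO4, and ran from 8.51 to 9.59 with naringenin. Ccl21c ran from 5.25 to 5.58, was at 7.70, 9.71 and 7.79 in the same CaPO4 order, and ran from 8.66 to 9.59. No smooth muscle or endothelial marker of the list carried a name, so the tissue label could not be checked. In such bulk RNA, fewer cells of a type and less RNA per cell cannot be told apart. Scan and group also overlapped: the controls were scanned as 1 set, naringenin 3 alone as another, and the other 5 arrays as the last, and in comparisons with control the scan and the group therefore cannot be told apart.

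Some probes varied little over the arrays. A narrow range picked from these same values is no measure of the spread between arrays. For 10 of the 117 probes the whole range over 9 arrays was under 1 log2 unit, and for 18 it was over 3. The narrowest range was that of a plus probe whose element lies in the gene for O-GlcNAc transferase (OGT). Its levels were 0.07, -0.04 and 0.02 in the controls, 0.23, 0.20 and 0.11 after CaPO4, and 0.30, 0.17 and 0.22 with naringenin. The minus probe of that element was detected on no array. Another steady probe was uc.465-, at 6.04, 5.80 and 6.51, then 6.34, 6.42 and 6.59, then 6.16, 6.27 and 5.80, and none of its 3 comparisons passed the test (the smallest adjusted p in limma was 0.461).

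This probe and the next 4 were named for their level averaged over 9 arrays, and 2 of those 4 passed the test in a comparison. The level of uc.360- was 4.95, 4.91 and 4.93 in the controls, 5.89, 5.47 and 5.83 after CaPO4, and 5.85, 5.91 and 5.75 with naringenin. It was 0.90 ± 0.28 (SE) log2 units higher with naringenin than in the controls (limma, adjusted p = 0.0248). The groups did not overlap. In contrast, uc.340- was at 8.49, 8.68 and 8.58 in the controls, 8.60, 4.94 and 8.42 after CaPO4, and from 4.99 to 5.45 with naringenin. CaPO4 1 and 3 lay with the controls and CaPO4 2 with the naringenin arrays. The change from control to naringenin was -3.44 ± 0.80 (10.8-fold lower, limma adjusted p = 0.00718). For uc.371-, at 6.73, 6.84 and 6.87, then 8.51, 6.28 and 8.39, then 5.81, 5.98 and 6.66, and for uc.154+, at 5.03, 4.95 and 4.99, then 4.31, 5.78 and 4.38, then 4.97, 4.96 and 4.04, no comparison passed.

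The first comparison set the aneurysm against the control aorta. After CaPO4, 35 of the 314 tested ultraconserved probes were higher and 41 lower than in the controls (limma, Benjamini-Hochberg adjusted p under 0.05 over all probes tested). The 76 called make 24.2%, beside 21.4% of all 37307 probes tested (10.1% higher and 11.3% lower). Among the 122 detected on every array, 19 were called (15.6%, beside 18.2% of all such probes), 12 higher and 7 lower, where all such probes had 11.0% and 7.21%. The median change of the 314 was -0.15 and that of all probes tested -0.04. The balance of directions moved with the scaling: 47 were higher and 29 lower with the array median, 22 and 56 with the percentile taken over probes detected on every array, and 4 and 102 with no scaling. These make 24.2%, 24.8% and 33.8%, beside 22.0%, 22.4% and 31.8% of all probes. The count moved with single arrays: 32, 32 and 41 probes were called without control 1, 2 and 3 (10.2% to 13.1%, beside 7.45% to 9.44% of all probes). It was 112 without CaPO4 2 (35.7%, beside 31.5%) and 153 without both CaPO4 2 and naringenin 3 (48.7%, beside 53.0%). With scan as a random block 29 were called (9.24%, beside 7.19%).

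Several rises were measured on both sides, in probes detected on every array. The level of uc.115- was 1.54, 1.63 and 1.77 in the controls, 3.99, 4.59 and 4.08 after CaPO4, and 4.51, 4.56 and 4.08 with naringenin. It rose 5.96-fold after CaPO4 (2.57 ± 0.31, limma adjusted p = 0.00234), and all 3 CaPO4 arrays lay above every control. The level of uc.10- went from 0.11, -0.16 and -0.24 to 1.73, 1.91 and 1.61 after CaPO4, and stood at 2.04, 2.08 and 2.62 with naringenin. Its rise after CaPO4 was 1.84 ± 0.30 (limma adjusted p = 0.00505). The level of uc.432+ went from 2.96, 3.08 and 3.43 to 4.81, 5.31 and 4.79, a rise of 1.81 ± 0.33 (0.00674), and was 5.05, 5.28 and 4.59 with naringenin. All 3 probes were called against control in the naringenin group as well, where the rises were 2.74, 2.34 and 1.82; both comparisons share the control arrays. With normexp, a model-based background correction that adds an offset of 50 to every signal, their rises after CaPO4 were 1.97, 1.20 and 1.26, each called. On each of these 3 probes CaPO4 2 was nearer to naringenin 1 and 2 than to CaPO4 1 and 3. These 3 were chosen after their values were seen, as the probes with the largest rises after CaPO4 among those detected on every array. The largest fall of that kind was in uc.34+, described with the strands.

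Larger fitted rises belonged to probes that no control array detected, for which only a lower bound of the fold can be given. The bound sets the brighter group against the dimmest detected signal of each array in the other group. The level of uc.459- was -2.36, -2.93 and -2.96 in the controls, -0.22, 0.48 and -0.30 after CaPO4, and 0.68, 0.91 and 0.28 with naringenin. It was at least 4.64-fold higher after CaPO4 (limma adjusted p = 0.00255) and at least 7.21-fold higher with naringenin than in the controls (0.000459). The level of uc.305- was -3.36, -3.28 and -3.12 in the controls, 0.01, -0.27 and -0.13 after CaPO4, and -0.49, 0.17 and -0.08 with naringenin. The level of uc.36- was -2.82, -4.47 and -3.04, then 0.27, -0.69 and 0.16, then -1.13, -0.37 and -1.61. All 3 were detected on 0 of 3 control arrays and 3 of 3 arrays of each other group, and the control values did not overlap those of the other groups. With normexp the fitted rises of the 3 probes after CaPO4 were 1.18, 1.10 and 1.16 log2 units, each called, so the sizes and bounds hold for the processed signal only. Control 2 of uc.36- lies at the lowest value the scanner software gives on that array.

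The largest fitted falls after CaPO4 were in probes that all 3 control arrays detected. The level of uc.255- was 1.73, 1.82 and 1.79 in the controls, -0.82, -1.60 and -2.08 after CaPO4 (2 of 3 detected), and -3.10, -2.06 and -3.36 with naringenin (1 of 3 detected). The level of uc.332- was 2.41, 2.41 and 2.37, then -0.26, -1.72 and -0.46, then -2.84, -2.15 and -1.19, detected on 3, 3 and 1 arrays. For both probes the controls lay close together and above every other array. Of uc.247+, at -0.66, -0.25 and -0.38 in the controls, no CaPO4 array (-3.79, -4.97 and -3.31) and 1 naringenin array (-4.86, -3.26 and -3.97) was above background. Of uc.343-, at -0.79, -0.73 and -0.85, no CaPO4 array (-3.79, -4.94 and -3.06) and 1 naringenin array (-3.91, -3.37 and -1.63) was, which put it at least 2.03-fold lower after CaPO4 (limma adjusted p = 0.00900). CaPO4 1 of uc.247+ and of uc.343- lies at the lowest value the scanner software gives on that array. In uc.332-, uc.247+ and uc.343- the detecting naringenin array was naringenin 3. On it 41.4% of the negative-named spots were also well above background. With normexp the falls of uc.255- and uc.332- after CaPO4 were called at -1.94 and -2.32, while those of uc.247+ (-0.67, limma adjusted p = 0.129) and uc.343- (-0.39, 0.163) were not. Of the 76 calls, 42 had a lower group in which no array detected the probe and 21 had one in which all 3 did.

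The second comparison asked which elements changed when aneurysm mice also received naringenin. Of the 314 probes, 4 were higher and 9 lower than in the CaPO4 group (4.14% called, beside 2.18% of all 37498 probes, 0.816% higher and 1.36% lower), and 80 had an unadjusted p under 0.05. Among those detected on every array, 3 were called, all lower (2.46%, beside 1.81% of all such probes, 0.332% higher and 1.48% lower). The count rested on single arrays. It was 126 without CaPO4 2 (40.1%, beside 45.6% of all probes), where the calls of the whole array rose as well. It was 1 without any one of CaPO4 1, CaPO4 3, naringenin 1 and naringenin 2 (0.318%, beside 0.0987% to 0.200% of all probes). It was 4 without naringenin 3 (1.27%, beside 0.453%), and 5, 4 and 5 without control 1, 2 and 3 (1.27% to 1.59%, beside 0.517% to 0.675%). Within the scan that held CaPO4 1 to 3 and naringenin 1 and 2, limma called 0 (beside 0% of all probes), with 41 at an unadjusted p under 0.05. With the replicate number as a block 6 were called in place of 13 (1.91%, beside 1.10% of all probes). With no scaling 2 probes were higher and 0 lower (0.637%, beside 0.784% of all probes), and after quantile normalization 2 were higher and 14 lower (5.10%, beside 3.95%).

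The clearest member was uc.46-. Its levels were 4.63, 4.70 and 4.83 in the controls, 3.31, 4.32 and 3.44 after CaPO4, and 0.10, -0.12 and -0.75 with naringenin. All 3 CaPO4 arrays, CaPO4 2 included, lay below every control and more than 3 log2 units above every naringenin array. This was the widest range of the 117 probes, 5.58 log2 units, and against the controls the change with naringenin was -4.97 ± 0.37 (31.4-fold lower, limma adjusted p = 0.000216). The change between naringenin and CaPO4 was -3.63 without CaPO4 2 and -3.70 without naringenin 3, and it was called without any single array. Within the shared scan it was also -3.70 but did not pass (limma adjusted p = 0.362), and with no scaling it was -2.76 (0.0523).

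The other 2 called falls in probes detected on every array had the same shape. The level of uc.471+ was 4.08, 4.05 and 4.01 in the controls, 3.73, 3.42 and 3.77 after CaPO4, and 1.71, 1.61 and 0.81 with naringenin. It fell 4.79-fold between CaPO4 and naringenin (-2.26 ± 0.33, limma adjusted p = 0.0144). The level of uc.481+ was 2.38, 2.45 and 2.51, then 2.42, 1.56 and 2.53, then 0.09, -0.02 and -0.65, a change of -2.36 ± 0.36 (5.15-fold lower, 0.0165), which was -1.54 and called with normexp. In neither did CaPO4 2 lie with the naringenin arrays. Neither change, naringenin against CaPO4, was called without CaPO4 1, CaPO4 3, naringenin 1 or naringenin 2, nor was uc.481+ without naringenin 3 (0.0525). The minus probes of both elements did not pass the detection filter, being well above background on 2 arrays for uc.471- and 1 for uc.481-.

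The remaining named members of this comparison crossed the detection limit. The level of uc.193- was 0.08, -0.23 and 0.13 in the controls, 0.65, -0.84 and 0.64 after CaPO4, and -2.75, -3.62 and -2.50 with naringenin, detected there on 1 of 3 arrays. The plus probe of an element on the list of published elements was at -1.05, -1.50 and -1.60, then -0.73, -1.58 and -1.05, then -4.91, -2.70 and -3.44, again with 1 of 3. For both probes the detecting array was naringenin 3. The level of uc.236+ was -1.72, -1.82 and -2.18 in the controls, -3.79, -3.23 and -3.55 after CaPO4, and -1.37, -1.87 and -1.12 with naringenin. It was detected on 3, 0 and 3 arrays, was called lower after CaPO4 (limma adjusted p = 0.0104) and at least 1.28-fold higher with naringenin than after CaPO4 (0.0188). Its values on CaPO4 1 and 3 are the lowest the scanner software gives on those arrays. The level of uc.239+ was -0.80, -0.53 and 2.18 with naringenin, with naringenin 3 highest, and lay between -3.59 and -2.64 on the other 6 arrays, where it was never detected. The level of uc.276- was -1.52, -1.58 and -1.99 with naringenin and that of uc.121- was -1.89, -1.75 and -1.34, and neither was detected on any control or CaPO4 array, so the bounds were only 1.08-fold and 1.11-fold. The probes uc.239+, uc.276- and uc.121- passed the detection filter only through the naringenin arrays, the group where they were high. With no filter uc.239+ (limma adjusted p = 0.0576) and uc.121- (0.0882) were not called, and uc.276- was (0.0454). None of the 6 probes named in this paragraph was called with normexp, without CaPO4 1, or without CaPO4 3. With normexp the change between CaPO4 and naringenin was 0.18 for uc.236+ in place of 2.07, 0.05 for uc.276- in place of 1.79, and -0.01 for uc.121- in place of 1.53. For uc.239+ it was 1.20 in place of 3.29, and for uc.193- it was -1.19 in place of -3.10. The change of uc.236+ after CaPO4 was 0.02 in place of -1.62.

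**Figure D2:**
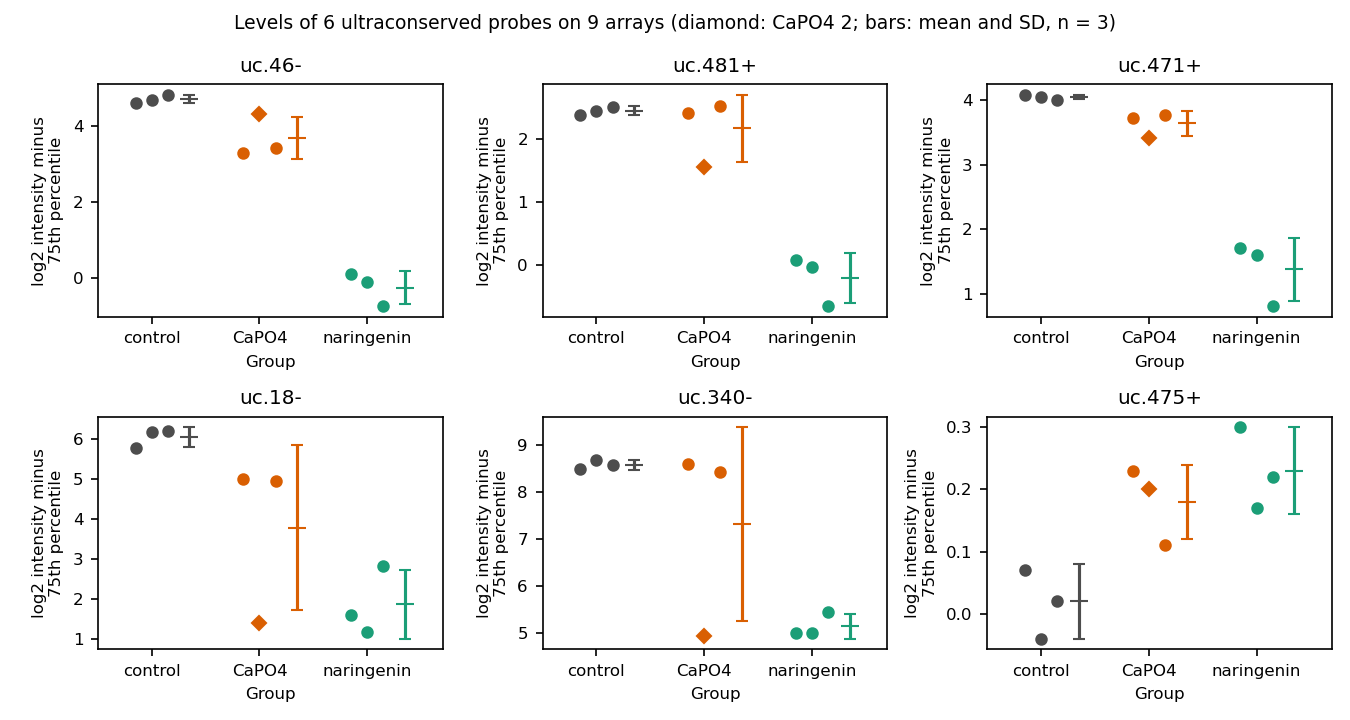
Levels on the log2 scale, relative to the 75th percentile of each array, of 6 probes detected on all 9 arrays, by group, with a point per array (CaPO4 2 as a diamond) and the group mean and SD (n = 3) at the right of each group; the vertical scales differ. For uc.46-, uc.471+ and uc.481+ the 3 CaPO4 arrays lay above all naringenin arrays, for uc.18- and uc.340- CaPO4 2 lay with the naringenin arrays, and the probe in OGT, at lower right, spanned 0.34 log2 units in all.

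The third comparison set aneurysm mice given naringenin against controls. Of the 314 probes, 66 were higher and 87 lower (48.7% called, beside 45.9% of all probes tested, 22.7% higher and 23.2% lower). Among those detected on every array 55 were called (45.1%, beside 43.8%), 21 higher and 34 lower, where all such probes had 21.5% and 22.3%. The median change was -0.24 for the 314 and 0.03 for all probes. With the percentile taken over probes detected on every array, 46 were higher and 95 lower (44.9% called, beside 45.3% of all probes). The count ran from 107 without naringenin 2 (34.1%, beside 33.5%) to 201 without CaPO4 2 (64.0%, beside 61.2%). Of the 55, 52 had a value on every array, and for 36 of these CaPO4 2 was nearer to naringenin 1 and 2 than to CaPO4 1 and 3.

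The largest changes did not all place CaPO4 2 alike. The falls of uc.46- and uc.255- from control to naringenin, -4.97 and -4.62, were among the largest, and CaPO4 2 lay above every naringenin array in both. In uc.332-, at -4.46, CaPO4 2 lay within the range of the naringenin arrays. Other large changes set CaPO4 2 apart from CaPO4 1 and 3. The level of uc.18- was 5.76, 6.17 and 6.18 in the controls, 4.98, 1.39 and 4.95 after CaPO4, and 1.59, 1.16 and 2.82 with naringenin, and its change from control to naringenin was -4.18 ± 0.86 (18.1-fold lower, limma adjusted p = 0.00410). The level of uc.30+ was 2.54, 3.15 and 2.71, then 2.36, -1.45 and 2.40, then -1.19, -1.22 and -0.77, a change of -3.86 ± 0.86 (14.5-fold lower, 0.00584). In both probes CaPO4 2 was within the range of the naringenin arrays or below it, and CaPO4 1 and 3 were nearer to the controls. The rise of uc.443- showed the same split, at -0.01, -0.28 and -0.50, then -0.51, 1.84 and -0.29, then 2.29, 2.35 and 1.77, and was 2.40 ± 0.56 from control to naringenin (limma adjusted p = 0.00730), or 1.56 with normexp, also called. For these 3 probes neither comparison with the CaPO4 group passed the test. The probes uc.30+ and uc.443- were chosen after their values were seen. The falls of uc.304-, from 0.40, 0.04 and 0.12 to -1.18, -4.93 and -2.07 and then -4.87, -4.26 and -3.96, and of uc.86-, below, were of the same kind but ended under the detection limit on most arrays.

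The largest rises from control to naringenin were all in probes that no control array detected. The level of uc.188+ was -3.23, -4.28 and -4.56 in the controls, -2.77, 0.66 and -2.83 after CaPO4, and -0.17, -0.13 and -0.27 with naringenin. It was at least 4.10-fold higher with naringenin than in the controls (limma adjusted p = 0.00473), and CaPO4 2 was the highest array. The level of uc.182- was -4.62, -4.47 and -2.85, then -2.13, -0.75 and -1.89, then -0.40, -0.55 and 0.51 (at least 4.23-fold, 0.00112). The level of uc.69+ was -4.62, -3.34 and -4.56, then -0.46, -2.93 and -1.06, then -0.39, -0.78 and -0.14 (at least 3.46-fold, 0.00165), and that of uc.117- was -4.62, -4.47 and -4.56, then -3.00, -1.69 and -3.55, then -1.13, -1.06 and -0.78 (at least 2.35-fold, 0.000695). On uc.69+ it was CaPO4 2 that lay lowest in its group, so CaPO4 2 did not take the naringenin side in each of them. With normexp these 4 rises were 1.23, 1.35, 1.40 and 0.89, each called. The lowest values the scanner software gives on controls 1, 2 and 3 are -4.62, -4.47 and -4.56. All 3 controls of uc.117- lie there, as do controls 1 and 2 of uc.182-, controls 1 and 3 of uc.69+ and control 3 of uc.188+. Such values have no measured spread, so the adjusted p-values of these probes depend on that floor. Among the 153 calls, 40 had a lower group with no array detecting the probe, 52 had 1 or 2, and 61 had all 3.

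The 2 strands of an element could be followed together in the 60 elements whose plus and minus probes both passed the filter. The strand difference, the plus level minus the minus level on the same array, was fitted in limma over all 712 plus and minus pairs of the array that had values in the controls, lincRNA pairs included, so the scaling cancels. After CaPO4 it changed from control in 22 of the 60 (36.7%, beside 26.8% of all pairs), 8 toward the plus strand (12.6% of all pairs) and 14 toward the minus strand (14.2%). With naringenin it changed from control in 32 (53.3%, beside 44.9%), 16 in each direction (22.2% of all pairs toward plus and 22.8% toward minus). Between CaPO4 and naringenin 1 of 60 was called, uc.46 toward plus (beside 5.31% of 716 pairs, 2.93% toward plus and 2.37% toward minus). There were 14 at an unadjusted p under 0.05, and 19 were called without CaPO4 2 (31.7%, beside 37.4% of all pairs) and 2 without naringenin 2 (3.33%, beside 1.68%). After CaPO4, 14, 14 and 12 were called without control 1, 2 and 3 (at most 23.3%, beside 13.2% to 15.8%). When only pairs with both probes detected on every array were fitted, 10 elements remained. Of these, 4 were called after CaPO4 (40.0%, beside 27.0% of all such pairs) and 7 with naringenin against control (70.0%, beside 46.7%).

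**Figure D3:**
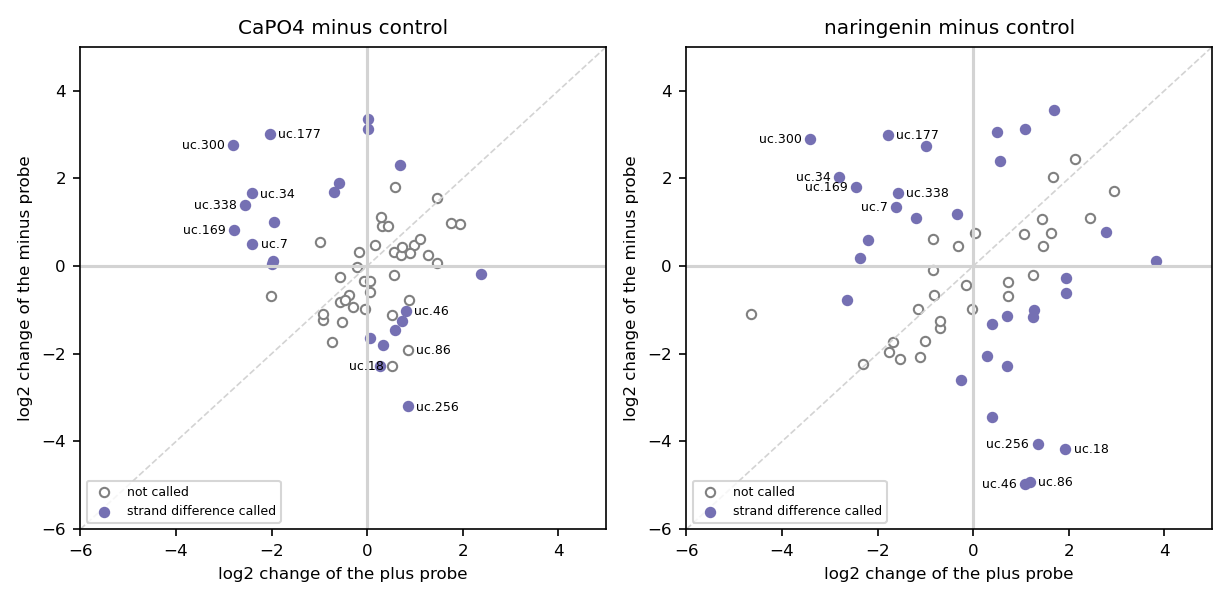
Log2 change of the minus probe against that of the plus probe for the 60 elements with both probes tested, CaPO4 minus control on the left and naringenin minus control on the right; filled points have a called strand difference (22 and 32) and the dashed line marks equal change. Both panels share the control arrays, and uc.34, uc.177 and uc.300 lie at upper left in each, where the plus probe fell and the minus probe had a positive change.

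In most of these the strands did not each pass the test, but some were called in opposite directions. After CaPO4 the 2 probes were both called in 3 elements, uc.34, uc.177 and uc.300, in each with the plus probe lower and the minus probe higher. These 3 of 60 stand beside 2.39% of all pairs with opposite calls and 2.53% with calls in the same direction. With naringenin both probes were called against control in 18 elements, in 8 with the same direction (13.3%, beside 13.3% of all pairs) and in 10 with opposite ones (16.7%, beside 9.55%). With normexp 2 of the 3 and 6 of the 10 still had opposite calls: uc.177 did not after CaPO4, nor did uc.7, uc.34, uc.177 and uc.256 with naringenin. Normexp added uc.18 and uc.256 after CaPO4. The plus probe was lower and the minus probe higher in uc.7, uc.34, uc.169, uc.177, uc.300 and the element in the PCBP2 gene, and the reverse held in uc.18, uc.46, uc.86 and uc.256.

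Only uc.177 switched strands by the strict rule, from plus on and minus off in the controls to minus on and plus off after CaPO4. The level of uc.177+ was -1.43, -1.46 and -1.35 in the controls, -3.62, -3.17 and -3.55 after CaPO4, and -2.91, -3.62 and -3.04 with naringenin, detected on 3, 0 and 1 arrays, the last being naringenin 3. The level of uc.177- was -2.31, -4.47 and -4.56, then -0.72, -1.02 and -0.54, then -0.68, -1.03 and -0.67, detected on 0, 3 and 3 arrays. No control value of either probe lay among the CaPO4 or naringenin values, and control 1 was the nearest for the minus probe. After CaPO4 the plus probe was at least 1.32-fold lower and the minus probe at least 2.76-fold higher, and the strand difference was called (limma adjusted p = 0.00114). Its size cannot be given: each probe was undetected in 1 of the groups, and some values lie at the lowest the scanner software gives. These are controls 2 and 3 of the minus probe and CaPO4 3 of the plus probe. The fitted change was -5.06 ± 0.63 with the processed signal and -1.04 with normexp, where the plus probe alone was not called (-0.16, 0.630). Both probes are dim: under the negative-spot bar the switch in uc.177 was not counted, and the 1 strict switch was in the PCBP2 element, between control and naringenin. With a looser rule, on at 2 of 3 arrays and off at 1 of 3, 7 elements switched between at least 1 pair of groups. With the more lenient mark of positive and significant signal there were 0 strict ones, and without CaPO4 3 there were 2.

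The same direction was seen in the element that lies in the gene of the RNA-binding protein PCBP2, whose transcript has been studied in liver cancer. The level of its plus probe was -0.21, -0.31 and -0.54 in the controls, -2.62, -3.45 and -2.70 after CaPO4, and -1.92, -2.52 and -1.37 with naringenin, detected on 3, 0 and 2 arrays. The level of its minus probe was -3.38, -2.61 and -2.96, then -0.51, -2.35 and -1.88, then -1.54, -1.46 and -0.91, detected on 0, 2 and 3 arrays. The groups did not overlap with the controls on either strand. The plus probe was at least 2.74-fold lower after CaPO4 (limma adjusted p = 0.00374), the change of the minus probe did not pass (0.0599), and the strand difference was called toward minus (0.00114). The fitted size, -3.97 ± 0.51, rests on undetected values on both strands and was -1.22 with normexp, also called.

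In uc.34 the plus probe was detected on all 9 arrays. Its levels were 2.68, 2.74 and 2.61 in the controls, -0.18, 1.22 and -0.26 after CaPO4, and -0.01, 0.08 and -0.44 with naringenin. It fell 5.33-fold after CaPO4 (-2.42 ± 0.42, limma adjusted p = 0.00586), the largest called fall there among the probes detected on every array. The level of uc.34- was -3.94, -2.95 and -3.39, then -2.30, -0.49 and -2.50, then -1.49, -1.20 and -1.47, detected on 0, 1 and 3 arrays. CaPO4 2 was the highest CaPO4 array on both strands, and the strand difference, in which a shift shared by both probes cancels, changed by -4.08 ± 0.45 after CaPO4 (0.00114) and -4.84 ± 0.45 with naringenin (7.79e-05). With normexp these were -2.77 and -2.83, both called.

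The strand difference of uc.300 also changed toward the minus strand. The level of uc.300+ was 2.10, 1.86 and 2.36 in the controls, -1.08, -1.60 and 0.57 after CaPO4, and -2.77, -0.86 and -0.30 with naringenin. The level of uc.300- was -4.62, -4.47 and -4.56, then -1.41, -1.54 and -2.40, then -1.63, -1.81 and -1.49. The minus probe was detected on no control array, and its strand difference changed by -5.58 ± 0.83 after CaPO4 (limma adjusted p = 0.00187) and -6.33 ± 0.83 with naringenin (0.000382). The control values of the minus probe lie at the lowest value the scanner software gives, so the size of this change depends on that floor. With normexp it was -2.81 and -2.80, both called. In uc.169 the plus probe, at 0.07, -0.09 and -0.20 in the controls, was detected on no CaPO4 array (-2.35, -3.82 and -2.41) and, with naringenin (-3.77, -2.39 and -1.40), on naringenin 3 only. Its minus probe was detected on all 9, at 0.36, 0.11 and 0.11, then 1.66, -0.16 and 1.57, then 1.98, 1.93 and 2.09, with CaPO4 2 below its group and below the controls.

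**Figure D4:**
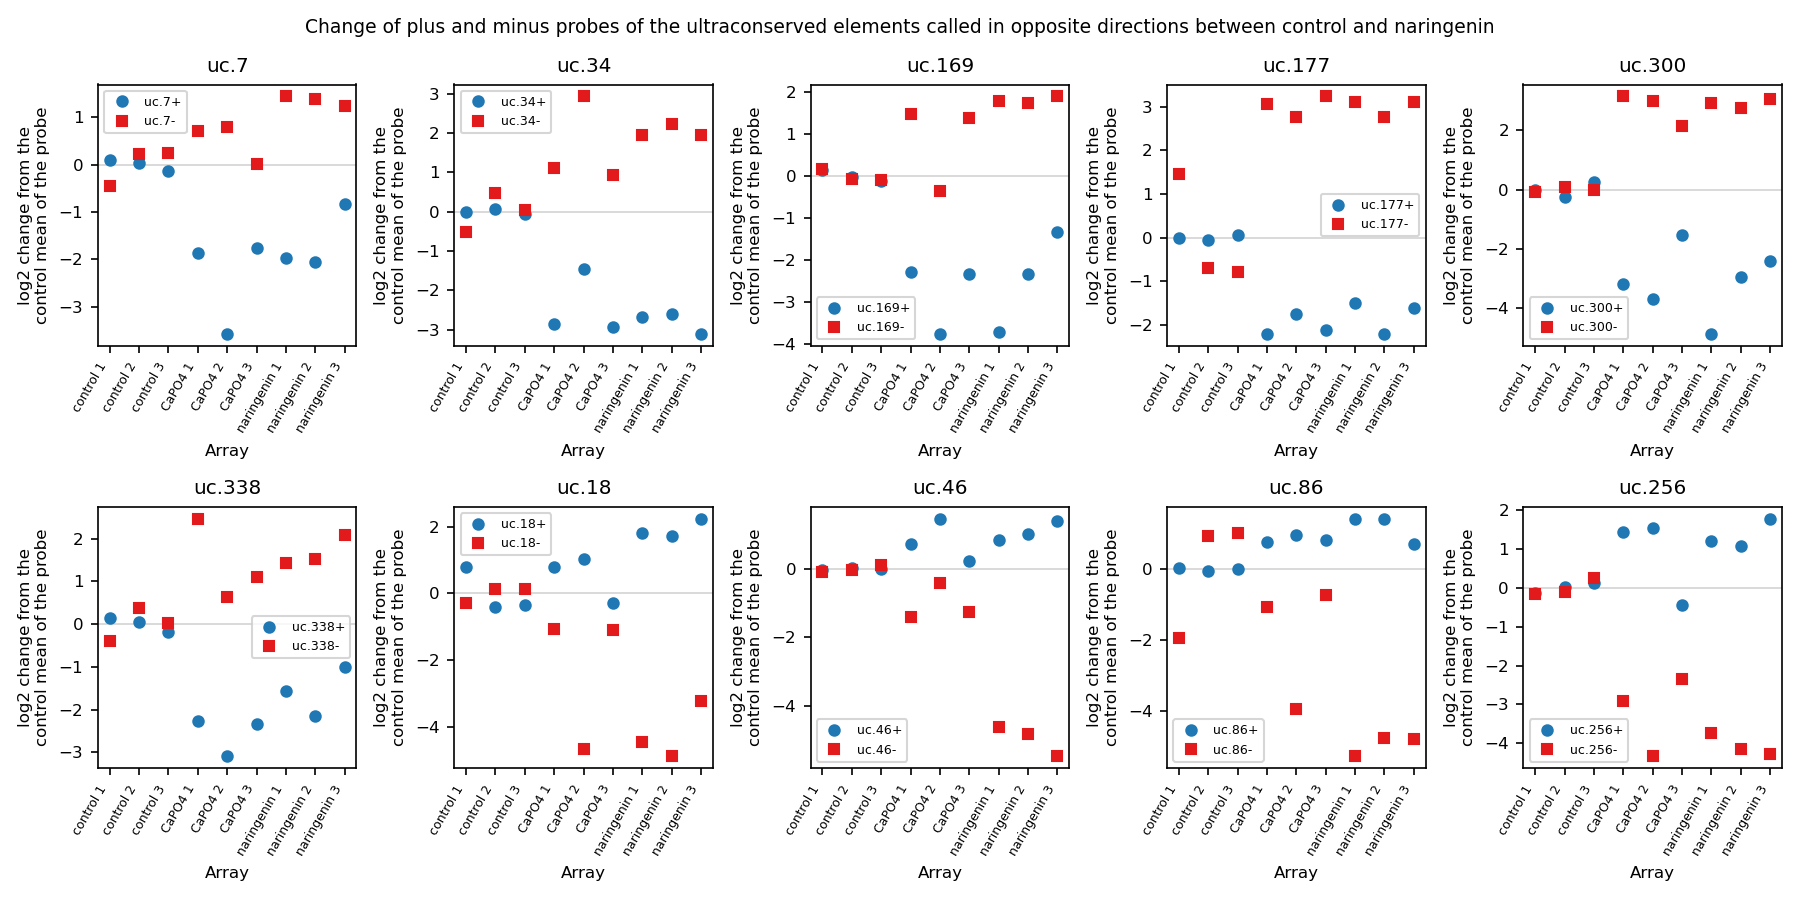
Change of each plus (circle) and minus (square) probe from its own mean over the 3 controls, per array, for the 10 elements whose probes were called in opposite directions between control and naringenin; the vertical scales differ. In the first 6 panels the circles of the naringenin arrays lay below and the squares above 0, and in the last 4 (uc.18, uc.46, uc.86 and uc.256) the squares lay below and the circles above.

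The reverse direction was led by uc.46, uc.18, uc.86 and uc.256. Both probes of uc.46 were detected on all 9 arrays. While uc.46- fell, the level of uc.46+ was -1.18, -1.13 and -1.13 in the controls, -0.42, 0.33 and -0.91 after CaPO4, and -0.31, -0.14 and 0.26 with naringenin, 1.09 ± 0.37 above control with naringenin (limma adjusted p = 0.0341), or 0.60 and called with normexp. Its strand difference changed by 6.06 ± 0.49 between control and naringenin (5.42e-05; 4.93 with normexp), by 1.84 ± 0.49 after CaPO4 (0.0192), and by 4.22 ± 0.49 between CaPO4 and naringenin (0.00208). The last comparison and that between control and naringenin were each called under all 15 alternatives run for them, which are not independent. Between CaPO4 and naringenin, scan as a block and leaving out naringenin 3 gave the same fit (3.81, limma adjusted p = 0.00727). The strand difference was not fitted within the shared scan.

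The strand difference of uc.18 changed by 6.11 ± 1.05 between control and naringenin (limma adjusted p = 0.00117), and by 4.63 with normexp, with uc.18+ at -2.49, -3.69 and -3.63 in the controls and -1.46, -1.54 and -1.03 with naringenin. The level of uc.86+ was 3.60, 3.51 and 3.56 in the controls, 4.32, 4.51 and 4.39 after CaPO4, and 4.98, 4.97 and 4.28 with naringenin, 1.19 ± 0.31 above control with naringenin (0.0112). The level of uc.86- was -1.57, 1.32 and 1.38, then -0.69, -3.55 and -0.35, then -4.88, -4.36 and -4.39, detected on 3, 2 and 0 arrays, at least 10.7-fold lower with naringenin (0.00286). Control 1 lay apart from the other controls on that probe, and the bound was 20.9-fold without it and 6.76-fold without naringenin 3. With normexp the fall of uc.86- was -1.91, still called. For uc.256 the minus probe was at 0.62, 0.66 and 1.03 in the controls, -2.16, -3.56 and -1.58 after CaPO4, and -2.97, -3.38 and -3.51 with naringenin, and was at least 5.97-fold lower after CaPO4 (0.00372), or called at -1.25 log2 units with normexp. The plus probe of uc.256, at -3.25, -3.11 and -3.00 in the controls and -1.92, -2.04 and -1.34 with naringenin, was just past the threshold (0.0498) and was not called with normexp (0.32, limma adjusted p = 0.123).

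In other elements the strand difference was called with a call on 1 probe only in at least 1 comparison with control. The level of uc.293- was 4.50, 4.35 and 4.44 in the controls, 3.44, 2.04 and 3.42 after CaPO4, and 2.49, 2.33 and 2.28 with naringenin, and it fell by 2.06 ± 0.40 from control to naringenin (limma adjusted p = 0.00318). Its plus probe ran from -1.65 to 0.17 with no comparison called, and the strand difference changed by 2.34 ± 0.48 with naringenin (0.00317). In uc.188 it was the minus probe that was not called, at 3.34, 3.29 and 3.28, then 2.62, 4.16 and 2.61, then 3.69, 3.62 and 2.97, while the plus probe rose, and the strand difference changed by 3.71 ± 0.61 with naringenin (0.00101), or by 1.11 with normexp, also called. In uc.161 the minus probe, at -3.18, -2.93 and -3.81 in the controls and -0.44, -0.58 and -0.65 with naringenin, rose at least 3.18-fold (0.00151) with no call on the plus probe, and was called at 0.91 with normexp. In the published element named with the falls between CaPO4 and naringenin, both strands were lower with naringenin than in the controls, by fitted changes of -2.30 and -2.24 for the plus and minus probe, both called. Its minus probe, at -1.09, -0.88 and -1.01 in the controls, was already undetected on all CaPO4 arrays (-2.40, -4.27 and -3.18), whereas the plus probe was detected there. The strand difference of this element changed by 2.55 ± 0.72 after CaPO4 (limma adjusted p = 0.0253). That call was lost in 6 of 14 alternatives, among them normexp (0.63, 0.0516) and leaving out any 1 control. With normexp the call on the minus probe after CaPO4 was lost (-0.34, limma adjusted p = 0.321). So was that on the plus probe between control and naringenin (-0.62, 0.0799), while the minus probe stayed called there (-0.83, 0.0206). In uc.395 the minus probe went from -1.86, -1.44 and -1.87 to -3.02, -3.99 and -3.55 after CaPO4, detected on none (limma adjusted p = 0.0137, and 0.563 with normexp), and the plus probe was detected on 0, 1 and 2 arrays of the groups. CaPO4 3 of the minus probe lies at the lowest value the scanner software gives on that array. The strand difference of uc.395 after CaPO4 (2.12 ± 0.67, limma adjusted p = 0.0395) lost its call in 9 of 13 alternatives, among them normexp and leaving out any 1 control.

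Elements near each other in number, which follow their order along the genome in the original catalogue, showed no positive relation in their changes. Over 111 pairs of tested probes with adjacent numbers on the same strand, the correlation of their changes was -0.0321 after CaPO4, -0.117 between CaPO4 and naringenin, and -0.169 between control and naringenin. The pairs share arrays and scaling, and these values are descriptive.

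A list of 16 elements with published functional work was also read out. Of their 32 probes, 14 passed the filter, from 10 elements, and 5 were detected on all 9 arrays, among them both strands of uc.48 and the plus probe in OGT. Called probes numbered 3 after CaPO4, 1 between CaPO4 and naringenin, and 6 between control and naringenin. These are 21.4%, 7.14% and 42.9% of the 14, beside 21.4%, 2.18% and 45.9% of all probes tested. One of the published elements lies in the gene of the splicing regulator TRA2B, in an exon whose inclusion keeps the message from making full protein. The level of its minus probe was -0.89, -0.71 and -0.84 in the controls, 0.59, -1.46 and 0.43 after CaPO4, and -0.55, -0.59 and -0.33 with naringenin, with CaPO4 2 apart from its group and no comparison called. The plus probe of the element in the gene of the splicing factor SRSF3 was at -0.70, -1.16 and -0.58, then -1.74, -5.04 and -1.30, then -2.18, -2.39 and -2.31. It was below every control on all 6 other arrays, but the changes did not pass (limma adjusted p = 0.115 and 0.151).

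Of the rest, the minus probe of an element studied in gut epithelium was at -0.72, -1.28 and -0.33, then -0.84, 2.20 and -0.34, then 1.47, 1.37 and 0.93. It was 2.04 ± 0.68 higher with naringenin than in the controls (limma adjusted p = 0.0334), and CaPO4 2 was its highest array. The level of uc.160-, from an element known for promoter methylation in tumours, was -0.77, -0.79 and -0.98, then -1.28, -2.54 and -1.76, then -1.84, -2.42 and -1.52, and changed by -1.08 ± 0.39 from control to naringenin (0.0465), which was not called with normexp (-0.52, 0.0613). The plus probe of an element studied in lung cancer was at -1.74, -1.77 and -1.28, then -3.44, -2.27 and -2.83, then -1.68, -2.20 and -1.19, lower after CaPO4 at the edge of the threshold (0.0496) and at a change of 0.04 with normexp (0.898). The level of uc.73+, from an element studied in leukaemia and colorectal cancer, was -1.13, -1.51 and -1.45, then -1.65, -3.24 and -2.02, then -2.09, -2.22 and -1.71, with no call. For uc.48, both strands of which were on everywhere, uc.48+ ran from -1.85 to -0.67 and uc.48- from -0.25 to 0.99, with no call. No probe of the other 6 elements of the list passed the filter, and of these uc.63 and 1 more were detected on no array on either strand. For an element linked to cardiac hypertrophy, 1 array detected the plus probe and none the minus probe.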

How the data were processed

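Per the submitters' processing notes, spots were read with Agilent Feature Extraction 11.0.1.1. Per the labels' protocols, samples were depleted of ribosomal RNA, copied with random primers and given the Cy3 dye. The deposited scanner files hold processed signal, an intensity from which the authors' scanner software had taken the background, array by array and in arbitrary units, beside median spot and local background intensity. The deposited table of all arrays holds the same intensity without scaling between arrays, within 0.0999% of the scanner values. Its column medians ran from 8.99 to 60.2. Its scale and direction are therefore known, and no centring was found.

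Control spots, outlier spots and the 1200 negative-named spots (20 probes) were left out, spots of a probe were averaged, and log2 intensity was set relative to the 75th percentile of each array. Probes well above background on at least 3 of 9 arrays (37498 of 59709) were fitted with limma 3.58.1 in R 4.3.3, with the data.table package in version 1.17.8 and jsonlite 2.0.0, as 1 mean per group. P-values were two-sided and Benjamini-Hochberg adjusted over all probes tested, with a call at 0.05. A total of 191 probes had no value in the controls, and no spot was saturated (0). Strand differences were fitted the same way over plus and minus pairs. The procedure was tested on simulated data. Figures used Python 3.11.15, pandas 2.3.3 and matplotlib 3.10.9. With 3 arrays per group, the precision is limited by their number.

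The elements, lists and tests were chosen with earlier results of these data known. Per comparison, the text names the 5 largest rises and falls among called probes whose groups do not overlap and up to 5 elements per direction with the largest called strand difference. It also names all strict strand switches, up to 6 elements with opposite calls, the 5 probes with the highest mean level among those detected on all 9 arrays, and 16 elements with published work. Other names were chosen after their values were seen. Normexp (offset 50) used the median spot signal. Alternatives covered scaling, background, filters, detection, left-out arrays, scan and the replicate number. Arrays with the same replicate number did not all deviate together: the correlation of their deviations from the group means, over all probes detected on every array, ran from -0.405 (CaPO4 1 with naringenin 1) to 0.449 (CaPO4 3 with naringenin 3) and was under 0.1 in all pairs with a control, so the numbers were not taken to pair the arrays.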

Additional observations from a re-analysis of the deposited data

How the results depend on the processing

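Leaving out each array in turn, the calls after CaPO4 ran from 32 to 112 (10.2% to 35.7%, beside 7.45% to 31.5% of all probes). Those between CaPO4 and naringenin ran from 1 to 126 (0.318% to 40.1%, beside 0.0987% to 45.6%). Those between control and naringenin ran from 107 to 201 (34.1% to 64.0%, beside 32.6% to 61.2%). Strand differences ran from 12 to 21, 1 to 19 and 27 to 35, probes detected on every array left from 122 to 131, on none from 287 to 547, and strict switches from 1 to 2. Without both CaPO4 2 and naringenin 3 the calls were 153, 151 and 211 (48.7%, 48.1% and 67.2%, beside 53.0%, 58.1% and 70.0% of all probes), and the strand differences 21, 21 and 35 (the latter chosen after seeing the data). Restricting the test to probes detected on all 9 arrays left 20, 3 and 56 calls (16.4%, 2.46% and 45.9%, beside 18.7%, 1.98% and 45.0% of all such probes). Against control, 4 and 7 of the 10 strand pairs left were called (40.0% and 70.0%, beside 27.0% and 46.7% of all such pairs). Calls between CaPO4 and naringenin became 7 with the percentile over probes detected on every array (2.23%, beside 1.78% of all probes) and 2 with no scaling (0.637%, beside 0.784%). They became 3 with normexp (0.955%, beside 0.595%), 7 without a filter (0.728%, beside 0.697%) and 1 with only the 2 groups fitted (0.318%, beside 0.0400%). With scan as a block they were 4 (1.27%, beside 0.453%). Within the shared scan they were 0 (beside 0%), where limma gave 41 at an unadjusted p under 0.05. With no scaling 80 were called between control and naringenin (25.5%, beside 25.6% of all probes), and with scan as a random block 29 after CaPO4 (9.24%, beside 7.19%). With normexp 2 strand differences were called between CaPO4 and naringenin (3.33%, beside 1.12% of all pairs). Positive and significant signal gave 252 probes on every array, 31 on none and 0 switches, the negative-spot bar 642 on none, and the looser switch rule 7. Between CaPO4 and naringenin, normexp took the change of uc.121- to -0.01, uc.276- to 0.05 and uc.236+ to 0.18; of the named changes after CaPO4 it ended the calls of uc.247+ and uc.343- and of 2 strand differences. Opposite calls of 2 strands numbered 4 and 6 with normexp in place of 3 and 10, and the bound for uc.86- ran from 6.76 to 20.9 without single arrays (both added after seeing the data). Apart from the filter and left-out arrays, whose construction changes what is tested, the cause was not tested. With the replicate number as a block the calls were 72, 6 and 153 (22.9%, 1.91% and 48.7%, beside 20.1%, 1.10% and 45.4% of all probes). The strand differences were 22, 1 and 32 (36.7%, 1.67% and 53.3%, beside 26.1%, 2.37% and 43.7% of all pairs). The replicate numbers do not pair the arrays. The filter on negative spots, chosen after seeing the data, gave 58, 9 and 121 calls (25.0%, 3.88% and 52.2%, beside 22.8%, 2.81% and 48.7% of all probes). The median change of all probes after CaPO4 was -0.04, and 0.18 with the array median, -0.38 with the percentile over probes detected on every array and -1.15 with no scaling. Of 50 named changes, 50 kept direction and call without CaPO4 2, and 40 without CaPO4 3; the 9 probe changes between CaPO4 and naringenin all lost the call within the shared scan. Signal near background limits the 648 probes not tested and the folds given as bounds.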
